A study of Pinus pinaster with 24 samples.

Results

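A set of 200 transcripts from the root tip of maritime pine (Pinus pinaster) was high in the root cap and low in the other 3 dissected tissues in seedlings that had received water. They were taken from the 47118 transcript identifiers listed. For each of these the second-highest of the 24 values was at least 1.65, so transcripts low in all libraries were absent. Members could reach that level through root cap libraries alone. Shares of all transcripts below refer to this listed set. The members were chosen from the 12 water libraries only. For each transcript the mean of log2(value + 1) over 3 water libraries was taken per tissue, and the largest of the gaps between neighbouring tissue means separated high from low tissues. Transcripts were kept if the root cap alone stood above that gap, if the gap was at least 1, and if all 3 root cap water values lay above all 9 other water values. This held for 981 transcripts, and the 200 with the largest gap are described here.

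The groups were the root cap, the meristem, the developing vessels and the developing cortex from seedlings irrigated with 80 mL of 3 mM NH4Cl, and the same tissues from seedlings irrigated with 80 mL of water, each with 3 libraries. All seedlings were 1 month old, of the same seed provenance (Segura-Alcaraz), had been given a nutrient solution without nitrogen 3 days before, and were sampled 24 h after irrigation. Tissue regions were cut by laser from 30 µm cryosections and, per the labels' protocols, correspond only approximately to the named tissues. Libraries are named below by the experiment in their title, which is 1, 3 or 4. Neither the number of seedlings behind a library nor the use of separate plants for libraries of a group is stated in the labels. The p-values therefore refer to library-to-library spread, part of which may be technical.

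The root cap is the tissue that covers the growing tip of a root. It shields the meristem, the zone of dividing cells behind it, and it is renewed from dividing cells at the tip while its outermost cells are shed. Its central cells hold the starch-filled plastids that sense gravity, and its outer cells secrete mucilage. In pines and other gymnosperms the root tip has no sharp boundary between the cells that form the cap and those that form the inner cortex. The files pair 0 of the identifiers with a gene name, so no function can be given for any member, and the tissue labels could not be checked against genes known to mark them.

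Values are reads per transcript scaled to library size and not divided by transcript length, so levels are compared between libraries and not between transcripts. Recovered depth ran from 67135340 to 88268689 reads per library, and 3 reads corresponded to a value between 0.0309 and 0.0493. Of the cortex and meristem ammonium libraries, the only ones compared in this way, some stood apart from their tissue across all transcripts. The cortex ammonium library of experiment 1 correlated with the mean of the root cap water libraries at r = 0.942 and with that of the cortex water libraries at r = 0.928. The meristem ammonium library of experiment 3 correlated with cortex at 0.948 and with meristem at 0.854, and that of experiment 4 with root cap at 0.898 and with meristem at 0.882. The median differences and counts of separation that use these libraries are also given without them. In dissected tissue, fewer cells of a type and less RNA per cell cannot be told apart.

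In water most of the 200 transcripts were near 0 in meristem and vessels. The rule fixed that root cap was higher but not how low the other tissues were, and no test is given of these values. Their median level, as log2(value + 1), was 4.96, 6.01 and 4.62 in the root cap water libraries of experiments 1, 3 and 4. It was 0.13, 0.20 and 0.22 in meristem and 0.05, 0.10 and 0.11 in vessels. Some members were well above that, and the highest mean log2 levels in water were 5.35 in meristem, for pp_188961, and 6.57 in vessels, for pp_134875, both named after their values were seen. Their root cap means were 8.30 and 10.02. Cortex was the nearest tissue, with medians of 1.60, 2.16 and 1.22, and it held the second-highest mean for 170 members, against 24 for meristem and 6 for vessels. The members took 2.23%, 4.18% and 1.75% of the summed signal of the root cap water libraries, and 0.153%, 0.137% and 0.0783% of that of the cortex water libraries.

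The gap ran from 8.30 down to 2.63 on the log2 scale. The last members inside the limit were pp_205713, pp_86956 and pp_72821, with gaps of 2.64, 2.64 and 2.63. The first transcripts outside it were pp_58183, pp_242959 and pp_104895, with 2.63, 2.63 and 2.61. The limit therefore falls within a continuous run of values and marks no break. Of the last 3 inside, pp_86956 kept its separation in ammonium, with root cap values of 25.5, 18.2 and 18.0 and cortex values of 8.17, 5.85 and 4.08. By contrast pp_72821 read 186 in the meristem ammonium library of experiment 4, against 309, 25.1 and 39.0 in the root cap ammonium libraries.

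**Figure D1:**
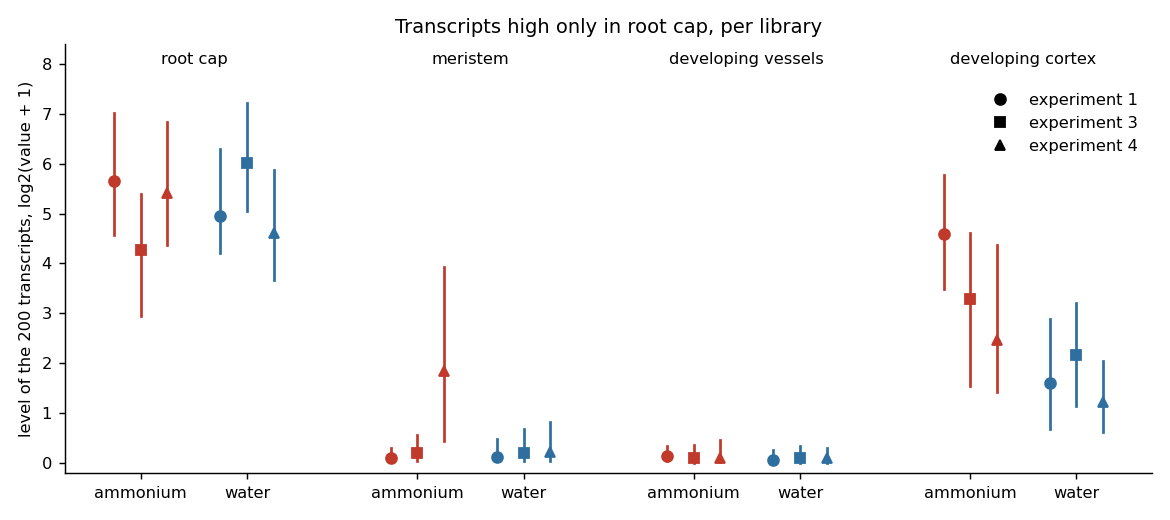
Median level of the 200 transcripts, as log2(value + 1), in each of the 24 libraries, with lines from the first to the third quartile of the members. Symbols mark the experiment, red is ammonium and blue is water. Cortex ammonium libraries sit at 4.60, 3.28 and 2.46, above the cortex water libraries at 1.60, 2.16 and 1.22, and the meristem ammonium library of experiment 4 sits at 1.84.

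The tissue pattern was tested in the 12 ammonium libraries, none of which had been used to choose the members. The members were again far more abundant in root cap than in meristem and vessels. Their median level was 5.66, 4.27 and 5.42 in root cap with ammonium (experiments 1, 3 and 4), against 0.10, 0.19 and 1.84 in meristem and 0.14, 0.10 and 0.10 in vessels. The root cap and vessel libraries do not overlap in this measure, and neither do the root cap and meristem libraries.

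By limma (Benjamini-Hochberg adjusted p under 0.05), 133 of the 200 were higher in root cap than in meristem and 0 were lower. Over all transcripts 1.90% were called higher and 0.0785% lower. At an unadjusted p under 0.05, limma placed 180 members higher, against 8.23% of all transcripts. The median log2 difference of the members was 4.01, with a median SE of 0.76, against -0.06 for all transcripts, and all 200 differences were positive. The size of this median depends on the value added before the log. It was 5.86 with 0.1 added, 2.69 with 4 added and 5.30 by DESeq2 on recovered reads. Without the meristem libraries of experiments 3 and 4, which leaves a single meristem library, the median difference was 4.78. It was also 4.78 without all 3 libraries that stood apart, since the third is a cortex library and does not enter this difference. With single root cap ammonium libraries left out, the limma count was 68 for experiment 1 and 86 for experiment 4. With single meristem ammonium libraries left out, it was 66 for experiment 1 and 88 for experiment 3. Shares of all transcripts were not taken for these fits. The quasi-likelihood test of edgeR on recovered reads called 57 members, where it called 0.968% of all transcripts, and DESeq2 called 132, where it called 4.21%.

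Against developing vessels, 174 of the 200 were higher in root cap and 0 were lower by the same limma fit, where 7.92% of all transcripts were called higher and 8.90% lower. At an unadjusted p under 0.05 limma placed 197 members higher, against 13.3% of all transcripts. On recovered reads edgeR called 164 members, against 7.39% of all transcripts, and DESeq2 188, against 11.6%. The median difference was 4.63 on the log2 scale (median SE 0.76), against -0.05 for all transcripts, and each of the 200 was positive. With most members near 0 in vessels, the size of this median depends on the value added. It was 7.00 with 0.1 added, 2.95 with 4 added and 8.45 by DESeq2. In all 3 vessel ammonium libraries 32 members had fewer than 3 reads, and in all 6 vessel libraries 14 members were listed at 0. Both contrasts were passed by 129 members, a combination met by 1.81% of all transcripts.

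**Figure D2:**
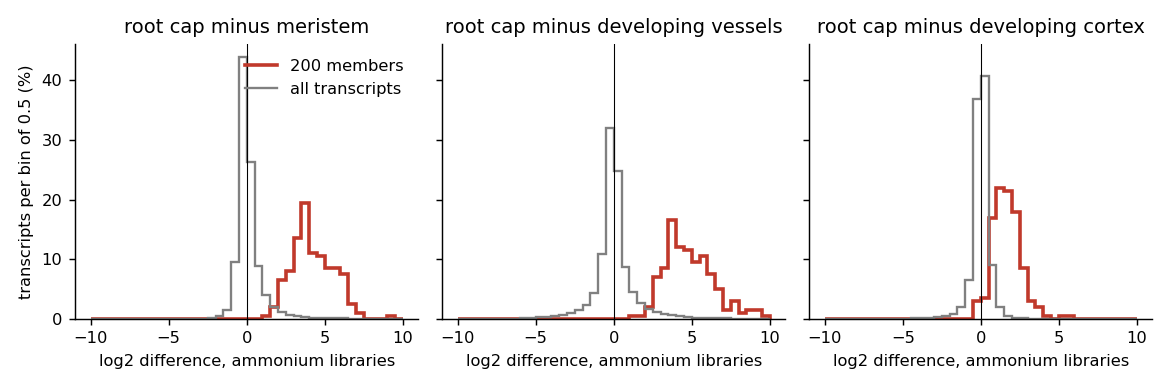
Distribution of the log2 difference between root cap and each other tissue in the 12 ammonium libraries, for the 200 members (red) and all 47118 transcripts (grey), as the percentage of transcripts per bin. The members centre on 4.01 for meristem, 4.63 for vessels and 1.63 for cortex, and all transcripts centre near 0.

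The cortex contrast was smaller. Members had median levels of 4.60, 3.28 and 2.46 in the cortex ammonium libraries, against 5.66, 4.27 and 5.42 in the root cap ammonium libraries of the same experiments. The root cap and cortex medians overlap between experiments, since cortex of experiment 1 lies above root cap of experiment 3. The median log2 difference was 1.63 (median SE 0.76), and it was positive for 194 of 200 members, while the median over all transcripts was 0.02. Without the cortex library of experiment 1 the members' median difference was 2.04. By limma 0 of the 200 were called higher or lower, and 0% of all transcripts were called in either direction. At an unadjusted p under 0.05, limma placed 78 members higher in root cap, against 2.80% of all transcripts, edgeR placed 26, against 2.10%, and DESeq2 placed 37, against 3.48%. At an adjusted p under 0.05 edgeR also called 0 members, while DESeq2 called 3, against 0.238% of all transcripts. The 3 called by DESeq2 also passed against both other tissues, a combination met by 0.0722% of all transcripts. The 78 members at an unadjusted p under 0.05 by limma also passed that threshold against both other tissues, as did 1.01% of all transcripts. Without the root cap ammonium library of experiment 3, limma called 5 members, and the share of all transcripts was not taken for that fit.

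Set beside the root cap library of the same treatment and experiment, the median member in cortex reached 40.1%, 40.1% and 16.5% of its root cap value with ammonium in experiments 1, 3 and 4. In the water libraries the same medians were 6.19%, 5.51% and 5.02%. The share differed widely between members. Between the lowest and highest 10% of members it ran from 12.04% to 117% in experiment 1, from 6.58% to 173% in experiment 3 and from 1.99% to 43.1% in experiment 4, all with ammonium. Cortex exceeded root cap for 25, 33 and 1 members in the ammonium libraries and for 0 in the water libraries of these experiments. Shares of all transcripts were not taken for these counts. The 1 member of experiment 4 was pp_128411, at 0.0425 in cortex and 0.0128 in root cap. These values correspond to 3 reads and 1 read, so its order is not settled. The water figures are set by the rule, which put all root cap water values above all others.

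**Figure D3:**
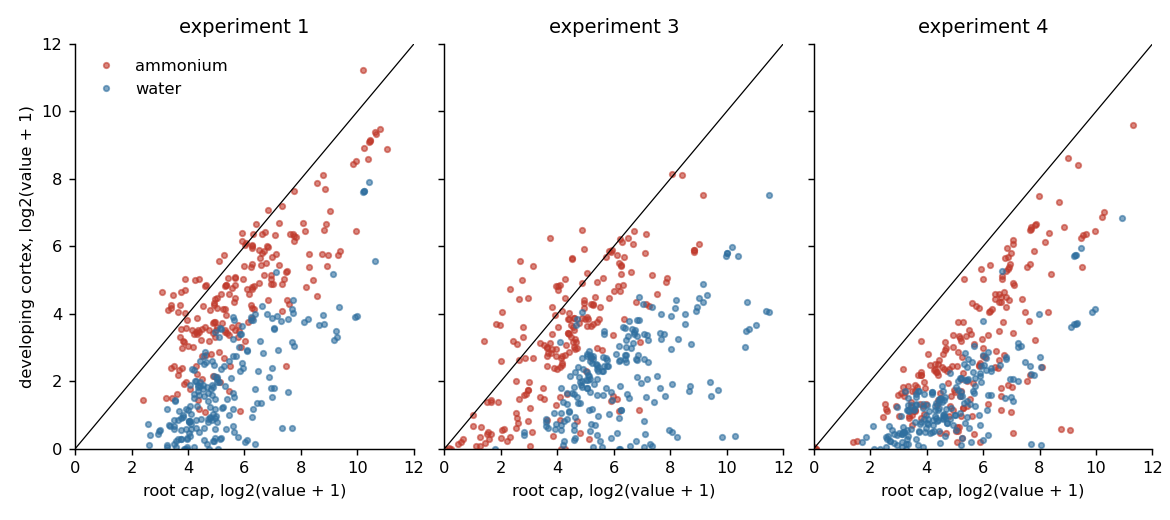
Level of each of the 200 members in developing cortex against root cap, both as log2(value + 1), in experiments 1, 3 and 4. Red points are ammonium, blue points are water, and the line marks equal levels. Cortex exceeds root cap for 25, 33 and 1 members with ammonium and for 0 with water, and shares of all transcripts were not taken.

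The separation that chose the members in water was met by few of them with ammonium. All 3 root cap ammonium values lay above the 9 other ammonium values for 36 members (18.0%), where 0.830% of all transcripts met this. Against single tissues the 3 root cap values lay above all 3 others for 158 members in meristem, 196 in vessels and 37 in cortex. The corresponding shares of all transcripts were 9.10%, 19.0% and 6.75%. The full tissue rule was met in ammonium by 14 members, against 0.229% of all transcripts. The count of 36 became 124 without the root cap library of experiment 3 and 108 without the cortex library of experiment 1. The count of 14 became 62 and 57 without those libraries, 26 without the cortex library of experiment 3, 9 without the meristem library of experiment 4 and 7 without the cortex library of experiment 4. Leaving out the 3 libraries that stood apart, a choice made after seeing the data, gave 125 and 51. With fewer values the separation is easier to meet for any transcript, and shares of all transcripts were not taken for these alternatives.

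The largest gap in ammonium most often put root cap and cortex together above the other tissues, as it did for 129 members. Root cap stood alone above it for 54 members, root cap with meristem and cortex for 12, and root cap with vessels and cortex for 5. Among all transcripts the shares of these classes were 11.2% for root cap and cortex, 4.48% for root cap alone, 10.3% for root cap with meristem and cortex and 4.59% for root cap with vessels and cortex. Root cap kept the highest mean of the 4 tissues for 194 members, where 18.0% of all transcripts had their highest ammonium mean in root cap. The other 6 had it in cortex. Within single experiments root cap was the highest of the 4 ammonium libraries for 175, 167 and 187 members in experiments 1, 3 and 4, against 24.0%, 24.9% and 18.4% of all transcripts.

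Among single members, the transcript with the largest gap in water was pp_114011. Its root cap values were 989, 34.2 and 542 with ammonium in experiments 1, 3 and 4, against 203, 1249 and 263 with water. In cortex it read 86.2, 0.214 and 0.481 with ammonium, against 0.545, 0.292 and 0.0831 with water. The high cortex value belongs to the library of experiment 1 alone, and the other 2 lie at the level of the water libraries. In the meristem it was listed at 0, 0 and 25.9 with ammonium, so again a single library was high. Its ammonium differences were 8.04 against vessels, 6.48 against meristem and 5.63 against cortex on the log2 scale (SE 1.81 each). By limma the vessel difference passed the threshold (adjusted p = 0.0111), though not without the root cap ammonium library of experiment 1 (limma, adjusted p = 0.0520, and 1.08e-05 to 0.0520 over all alternatives). The meristem difference missed it (limma, adjusted p = 0.125, and 0.0284 to 0.501 over the alternatives that use ammonium libraries only), as did the cortex difference (limma, adjusted p = 0.713, and 0.117 to 1.00 over the alternatives). With the meristem library of experiment 4 left out, the meristem difference passed (limma, adjusted p = 0.0374).

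Transcript pp_235229 followed pp_114011 closely. It had root cap values of 673, 26.8 and 428 with ammonium, against 159, 909.8 and 209 with water, and it was listed at 0 in all 6 vessel libraries. Its cortex values were 57.3, 0.395 and 0.509 with ammonium, against 0.531, 0.278 and 0.0969 with water. The order of the 6 root cap libraries was the same as for pp_114011.

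Transcripts pp_218783, pp_181420 and pp_235232 formed another group of leading members, in which all 3 cortex ammonium libraries lay above the 3 cortex water libraries. The root cap values of pp_218783 were 1785, 229.8 and 1191 with ammonium, against 973, 2859 and 918 with water. Its cortex values were 716, 29.5 and 117 with ammonium, against 14.0, 15.6 and 15.6 with water. In the meristem it reached 295 in the ammonium library of experiment 4, against 6.83 in the water library of that experiment. For pp_181420 the cortex values were 668, 23.2 and 129 with ammonium, against 14.2, 15.9 and 16.6 with water. For pp_235232 they were 384, 32.6 and 87.4 with ammonium, against 8.98, 11.6 and 11.9 with water.

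The 4 members with the greatest smallest difference in ammonium were pp_114011, pp_235229, pp_136777 and pp_235758. In pp_136777 the root cap values were 178, 1.71 and 131 with ammonium, against 66.9, 304 and 37.6 with water. Its cortex values were 4.44, 0.132 and 0.382 with ammonium, against 0.186, 0.264 and 0.249 with water, and its meristem values stayed between 0.0629 and 0.310 in all 6 libraries. It was 4.30 higher in root cap than in cortex on the log2 scale (SE 1.28), with the low root cap value of experiment 3 overlapping the cortex library of experiment 1. For pp_235758 the root cap values were 179.8, 7.55 and 98.5 with ammonium, against 49.0, 269 and 63.6 with water. It stood 3.72 above cortex (SE 1.28), where its ammonium values were 20.4, 0.411 and 1.20.

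At the other end, pp_117814, pp_146696, pp_117816 and pp_117812 had mean log2 levels lower in root cap than in cortex in ammonium, with differences of -0.21, -0.18, -0.16 and -0.16 (SE 0.85, 0.69, 0.68 and 0.67). By limma 0 of these 4 were called. Root cap values of pp_117812 were 12.4, 21.9 and 11.96 with ammonium, against 26.7, 23.1 and 11.3 with water. In cortex it had 24.1, 48.1 and 3.51 with ammonium, against 0.903, 2.53 and 1.47 with water. For pp_146696 the cortex values were 24.2, 31.5 and 2.28 with ammonium, against 0.717, 1.08 and 0.554 with water. In both, the cortex ammonium libraries of experiments 1 and 3 exceeded every root cap ammonium library, and all 3 cortex ammonium values lay above the 3 water values. Their vessel values were at most 0.113 with ammonium, and their highest meristem value was 3.40, for pp_117814 with ammonium in experiment 3. Without the cortex ammonium library of experiment 3 the 4 differences from cortex were 0.86, 0.43, 0.56 and 0.57, and without that of experiment 1 they were -0.33, 0.24, 0.11 and 0.09, so their sign is not settled.

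**Figure D4:**
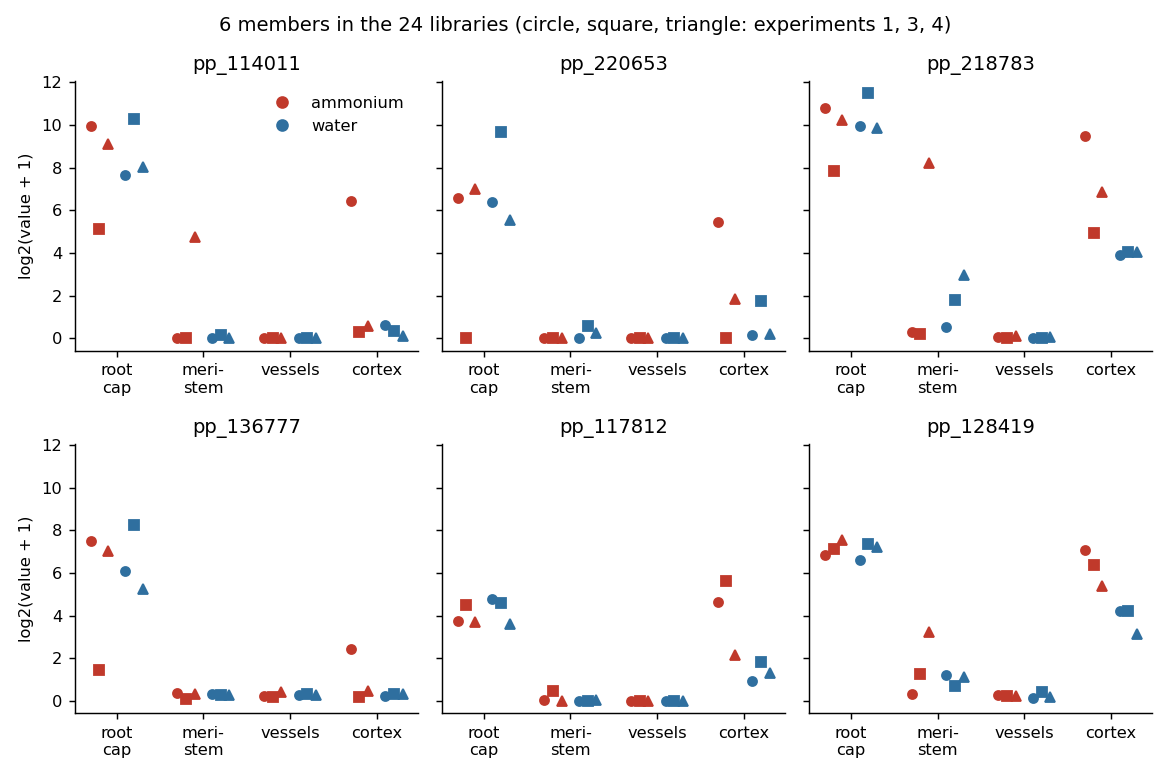
Levels of 6 members, as log2(value + 1), in the 24 libraries, with ammonium in red left of water in blue in each tissue and symbols for the experiment. Transcripts pp_114011 and pp_136777 are low in 2 of 3 cortex ammonium libraries. With ammonium, pp_117812 is lower in root cap than in cortex in experiments 1 and 3. Transcript pp_220653 drops to a value of 0.0136, before the log, in the root cap ammonium library of experiment 3.

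Members also differed in which library outside the root cap held their highest ammonium value. This was the cortex library of experiment 1 for 133 members, that of experiment 3 for 38, the meristem library of experiment 4 for 26 and the cortex library of experiment 4 for 3. The 38 members highest in cortex of experiment 3 had a median level of 4.60 there and of 0.20 in the meristem library of experiment 4. The 26 members highest in that meristem library had a median level of 5.75 in it, against 5.37 in the root cap library of the same experiment, and of 0.92 in cortex of experiment 3. These subsets were formed from the values they describe and were given no test, and shares of all transcripts were not taken.

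The meristem ammonium library of experiment 4 therefore held some members at full root cap level and lacked others. The median member reached 6.08% of its root cap value of that experiment, with a range of 0.144% to 68.5% between the lowest and highest 10% of members. For 13 members the meristem value was the higher, and the share of all transcripts was not taken for this count. The corresponding medians were 0.124% and 0.853% in meristem with ammonium in experiments 1 and 3, and 0.330%, 0.178% and 0.748% in the meristem water libraries of experiments 1, 3 and 4. For example, pp_73676 read 590.4 in that meristem library and 2525 in the root cap library of the same experiment. By contrast pp_220653 was listed at 0 there with a root cap value of 128, and pp_235989 read 0.647 with a root cap value of 724.

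Within the root cap the members were more variable than most transcripts. The highest of the 6 root cap values over the lowest, each with 1 added, had a median of 6.08 for the members and 1.72 for all transcripts. It exceeded 10 for 55 of the 200 members and for 799 of all 47118 transcripts. The added 1 damps this ratio at low levels. Median log2 levels in the root cap libraries were 4.27 to 6.01 for the members and 2.24 to 2.28 for all transcripts, so levels were not matched. The members' choice on high root cap water values enters this spread, and it was given no test. The water library of experiment 3 was the highest root cap library for 114 members and the ammonium library of experiment 3 the lowest for 103. Shares of all transcripts were not taken for these counts, and the choice of members favours a water library as the highest. Ratios ran from 1.67 in pp_104901, named after its values were seen, to 811 in pp_220653. For pp_220653 the root cap values were 94.5, 0.0136 and 128 with ammonium, against 82.2, 821 and 46.4 with water, so a transcript abundant in 5 root cap libraries was nearly absent from the other. For pp_104901 they were 26.6, 23.2 and 19.1 with ammonium, against 20.7, 32.6 and 22.5 with water.

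The transcripts that took most reads in the root cap ammonium libraries were pp_73676, pp_218783, pp_235989 and pp_181420. The 10 leading members held 38.9% of the members' summed signal there. For pp_73676 the root cap values were 1168, 567 and 2525 with ammonium, against 1582, 2869.9 and 1945 with water, and its cortex values were 2396, 184 and 782 with ammonium, against 46.3, 185 and 113 with water. For pp_235989 the root cap values were 2126, 342 and 724 with ammonium, against 275, 1343 and 201 with water. Its cortex values were 468, 275 and 40.9 with ammonium, against 12.4, 51.1 and 4.51 with water. In the meristem it was at most 0.647 in the 6 libraries, and its ammonium difference against meristem was 9.18 on the log2 scale (SE 0.83).

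Many members had neighbouring identifiers. The 200 fell into 127 runs of consecutive numbers, of which 38 held 2 or more members and together 111 of the 200. The 73 consecutive pairs had a median correlation of 0.970 over the 6 root cap libraries, against 0.513 over all 19900 pairs of members, as a description. Neither the share of neighbours nor their correlation was taken over all transcripts, so no trait of the members is read from these figures. The files do not say which identifiers belong to the same gene, so counts of members are not counts of genes. The longest run, pp_128408 to pp_128419, held 12 members. Its first member had root cap values of 58.8, 71.8 and 106 with ammonium, against 47.0, 89.9 and 77.3 with water, and its last had 113, 141 and 187 with ammonium, against 97.6, 161 and 149 with water. Both varied less across the root cap libraries than most members, and both were higher in all 3 cortex ammonium libraries than in the 3 cortex water libraries. In cortex pp_128408 had 83.2, 44.2 and 24.1 with ammonium, against 8.49, 9.20 and 4.26 with water, and pp_128419 had 134, 82.3 and 41.1 with ammonium, against 17.8, 17.5 and 7.86 with water.

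Members of a run did not always move together, and 8 of the 73 consecutive pairs correlated under 0.5. Transcript pp_128411, inside the longest run and named after its values were seen, had root cap values of 11.8, 39.3 and 0.0128 with ammonium, against 16.2, 11.1 and 18.5 with water. It was nearly absent from root cap and cortex of experiment 4 with ammonium, at 0.0128 and 0.0425, while the neighbouring pp_128410 and pp_128412 had their highest root cap value, at 326 and 225, in that library. In the run from pp_235752 to pp_235758 the first member had root cap values of 38.8, 2.76 and 19.9 with ammonium, against 18.5, 56.0 and 17.5 with water. As in pp_235758, water of experiment 3 was highest and ammonium of experiment 3 lowest. In the run from pp_235221 to pp_235225 the root cap values were 282, 31.7 and 179 with ammonium, against 131, 409.5 and 126 with water, for the first member. For the last they were 189, 29.8 and 70.5 with ammonium, against 58.9, 149 and 70.2 with water.

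Ammonium was compared with water inside each tissue as a description, because the water libraries chose the members. That choice favours high root cap values in water and low water values in cortex, meristem and vessels. In cortex the ammonium mean was above the water mean for all 200 members, beside 46.9% of all transcripts, with a median log2 difference of 1.70, against -0.03 for all transcripts. The 3 cortex ammonium values lay above the 3 water values for 85 members, beside 6.37% of all transcripts, and nothing is read from that pair of figures. In root cap the median difference was -0.22, with 68 members higher, beside 48.5% of all transcripts. It was 0.55 in experiment 1, -1.77 in experiment 3 and 0.75 in experiment 4, and the 3 ammonium values lay apart above water for 1 member and below it for 0, beside 6.02% and 6.64% of all transcripts. In meristem 165 members had the higher mean with ammonium, beside 51.5% of all transcripts, and the median difference was 0.33, with 1.51 in experiment 4 and -0.03 and -0.01 in experiments 1 and 3. In vessels it was 0.03, with 136 members higher, beside 48.0% of all transcripts.

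To read the comparison in values that chose no member, the list was made anew by the same rule without each experiment in turn and read in that experiment. These lists shared 162, 164 and 155 of their 200 transcripts with the members when experiment 1, 3 or 4 was left out. In the water libraries of the experiment left out, root cap was the highest tissue for 194, 199 and 198 of 200, where this held for 16.1%, 20.6% and 19.4% of all transcripts. In its ammonium libraries root cap was highest for 179, 143 and 182 of 200, against 24.0%, 24.9% and 18.4% of all transcripts. The lists thus kept root cap on top in libraries that had no part in making them.

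In cortex these lists stood higher with ammonium than with water in each experiment left out. Their median levels were 4.78, 3.88 and 2.36 in the ammonium libraries of experiments 1, 3 and 4, against 1.83, 2.61 and 1.14 in the water libraries. The median differences were 2.38, 1.08 and 0.98, with 199, 174 and 172 of 200 transcripts higher, against 0.02, -0.06 and -0.03 for all transcripts. In root cap the median differences were 0.87, -1.64 and 0.94, so experiment 3 went the other way from experiments 1 and 4. In meristem they were -0.07, 0.00 and 1.44, and in vessels they lay between 0.00 and 0.06. Each difference compares 1 ammonium library with 1 water library, and the 3 lists overlap, so they were given no test.

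Transcripts of other tissues also differed in level between the same libraries. The lists of 200 transcripts high only in cortex, meristem or vessels were made by the same rule in the water libraries. In the cortex ammonium libraries of experiments 1, 3 and 4 the cortex list had median levels of 4.72, 6.93 and 5.03, against 6.13, 6.03 and 5.15 in the cortex water libraries, so it was lowest in the library where the root cap transcripts were highest. In the meristem ammonium library of experiment 4 the meristem list stood at 3.01 and the root cap transcripts at 1.84, against 4.20 and 0.10 in that of experiment 1. The meristem ammonium library of experiment 3 held the cortex list at 4.77 and the root cap transcripts at 0.19. Water libraries differed in this way too. The cortex list stood at 3.33 in the root cap water library of experiment 4, against 0.94 and 1.07 in those of experiments 1 and 3. The vessel list stood at 2.88 in the meristem water library of experiment 3, against 0.31 and 0.30 in those of experiments 1 and 4. The part of such shifts in the cortex and meristem values of the root cap transcripts was not tested.

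**Figure D5:**
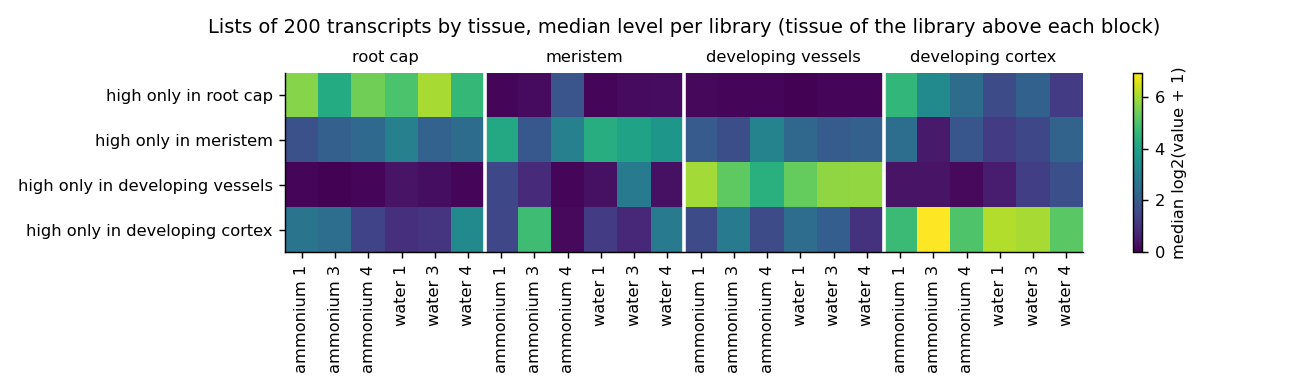
Median level, as log2(value + 1), of the 4 lists of 200 transcripts chosen by the same rule (rows) in the 24 libraries (columns, grouped by tissue with ammonium left of water). The root cap row reaches 4.60 in the cortex ammonium library of experiment 1 and 1.84 in the meristem ammonium library of experiment 4.

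The 4 lists were chosen at unequal gaps, so their counts in ammonium are not like for like. The gap in water ran from 8.30 to 2.63 for root cap, 5.56 to 2.42 for cortex, 6.28 to 3.57 for vessels and 2.21 to 1.14 for meristem. The 3 own-tissue ammonium values lay above the 9 others for 36 of 200 root cap transcripts, against 59 of 200 for cortex, 198 of 200 for vessels and 2 of 200 for meristem. Over all transcripts the shares separated in this way were 0.830% for root cap, 1.69% for cortex, 7.88% for vessels and 0.427% for meristem. The highest ammonium mean was in the list's own tissue for 194 root cap transcripts, against 194 for cortex, 200 for vessels and 193 for meristem, where 18.0%, 23.7%, 31.8% and 26.5% of all transcripts had it in those tissues. Over the whole table, 108 transcripts met the tissue rule for root cap in ammonium, and 70 of these were among the 981 that met it in water, which is 64.8% of the ammonium list and 7.14% of the water list. The differences between lists were not tested.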

How the data were processed

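Per the labels' protocols, RNA of 24 root tip samples cut by laser went through SMART-Seq amplification and paired-end sequencing, and the submitters' processing notes name bcl2fastq and BWA. Not given in the sources used here are the reference sequence and the counting tool. The table the authors deposited, labelled as CPM, holds a signal of reads per transcript divided by a factor per library: its columns sum to between 793680 and 1210370, and 100% of values are whole multiples of the library's smallest step within 0.01 reads. The deposited signal was used as log2(value + 1), and recovered reads served the count tests.

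Root cap was compared with each other tissue in the 12 ammonium libraries with limma 3.58.1 (R 4.3.3, moderated test with a mean trend). The fit had 4 groups, no covariates and no filter beyond the lower limit already present in the deposited table. Adjustment was over 47118 transcripts by the Benjamini-Hochberg method. Checks on simulated data ran first. The water libraries chose the members, so water patterns and ammonium-water differences carry no test. Named members were those with the 6 largest gaps in water, those on either side of the list's end, those with the 4 largest and 4 smallest differences in ammonium, the 4 highest ammonium means, and the ends of the 3 longest identifier runs. The members and lists were chosen with earlier results of these data known. Alternatives were edgeR 4.0.16, DESeq2 1.42.0, other pseudocounts (0.1 and 4), other scalings, array weights, a filter (value of at least 1 in 3 libraries), all 24 libraries in 8 groups, the experiment as a block, and leaving out libraries. Of the members 200 passed that filter, as did 45169 of all transcripts. The floor of 3 reads covers counting error only.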

Additional observations from a re-analysis of the deposited data

How the results depend on the processing

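The count of members higher in root cap than in vessels stayed within 1.5 times of 174 in all 24 alternatives (146 to 183 when leaving out single libraries). The count against meristem was 57 by edgeR, against 133 by limma, and 66 to 162 when leaving out single libraries. Against cortex, 3 members were called by DESeq2, 5 with all 24 libraries in 1 fit and 13 with array weights, against 0, and 0 to 5 when leaving out single libraries. Against all 3 tissues together these counts were 3, 5 and 12, and 0 to 5. The fit of all 24 libraries takes its error variance partly from the water libraries that chose the members, so its counts are not independent of that choice. The count of separate members (36) was 125 without the 3 libraries that stood apart, an alternative chosen after seeing the data, and 36 to 124 when leaving out single libraries. The count meeting the tissue rule in ammonium (14) was 9 without the meristem libraries of experiments 3 and 4, 51 without the 3 libraries that stood apart, 7 with a pseudocount of 0.1 and 23 with a pseudocount of 4, and 7 to 62 when leaving out single libraries. Shares of all transcripts were taken for the main counts and for edgeR and DESeq2, and not for the other alternatives. The median ammonium minus water difference in vessels was 0.17 with a pseudocount of 0.1, and without each experiment in turn the medians ran from -0.63 to 0.67 in root cap, -0.02 to 0.67 in meristem, 0.00 to 0.05 in vessels and 1.24 to 2.08 in cortex.

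With array weights the root cap minus cortex difference was 1.07 for pp_117814, 0.80 for pp_146696, 0.84 for pp_117816 and 0.84 for pp_117812. Without the 3 libraries that stood apart it was -0.33 for pp_117814, 0.24 for pp_146696, 0.11 for pp_117816 and 0.0897 for pp_117812. When leaving out single libraries it ran from -1.15 to 0.86 for pp_117814, -1.23 to 0.43 for pp_146696, -1.16 to 0.56 for pp_117816 and -1.15 to 0.57 for pp_117812. The cause of these changes was not tested. With the experiment number as a replicate block the counts against meristem, vessels, cortex and all 3 together were 131, 184, 0 and 0, against 133, 174, 0 and 0 without it. The correlation of deviations was over 0.1 for 31 of 36 pairs of same-numbered libraries and ran from -0.17 to 0.64. Each pair joined different tissues of the same treatment. Whether ammonium libraries share deviations with same-numbered water libraries was not examined. As not every pair passed 0.1, the main fit did not treat the numbers as pairing the samples. Most pairs did pass, so same-numbered libraries cannot be taken as independent. The labels do not say whether a number marks shared plants. Values of a few reads carry large counting error, and 3 libraries a group limit every count.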
